A study of Mus musculus with 42 samples.

Results

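Nkx1-2, Sp8, Evx1 and Gdf11 are 4 genes of the neuromesodermal progenitor programme. Their binding by SOX2, β-catenin and LEF1 was read from 30 lists of chromatin immunoprecipitation sequencing (ChIP–seq) peaks. Members were every peak that overlapped the body of one of these genes extended by 10 kb on each side, in mm10 coordinates. This gave 1301 of the 9218878 peaks of all lists, and 352 of the 600000 peaks left when each list was reduced to its 20000 best by q value. The 4 genes were 4 of 21938 annotated protein-coding genes. Cells were mouse embryonic stem cells of the HM1 line (129 strain), differentiated towards epiblast in N2B27 medium with bFGF and LGK974, a drug that blocks WNT secretion, and collected at 72 h. With CHIR99021 (CHIR), a GSK3 inhibitor that activates WNT signalling, from day 2 the cells are caudal epiblast-like (CEpiLCs), and without it (noCHIR) they remain epiblast-like (EpiLCs). Each of the 3 proteins was precipitated in CEpiLCs that were wild type (WT), Cdx1/2/4-/- (CdxKO) or T/Bra-/- (T/BraKO), and SOX2 also in WT EpiLCs, with 3 libraries described as independent biological replicates in each of the 10 groups. The deletions were carried by separate cell lines, so line and genotype cannot be told apart, and gene expression was not measured in these libraries.

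Neuromesodermal progenitors lie in the caudal epiblast and give rise to both spinal cord and paraxial mesoderm as the trunk elongates. WNT signalling stabilizes β-catenin, which has no DNA-binding domain and reaches chromatin through TCF/LEF factors such as LEF1, while the HMG-box factor SOX2 binds DNA directly. Nkx1-2 encodes a homeodomain protein of the caudal lateral epiblast, Sp8 a zinc-finger factor of the SP family related to the WNT target Sp5, Evx1 a homeodomain protein of the posterior primitive streak, and Gdf11 a secreted TGF-β family ligand that takes part in the trunk-to-tail transition. T (Brachyury) and the CDX proteins are DNA-binding factors needed for posterior axis elongation.

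The lists held between 26940 peaks (replicate 3 of SOX2 in T/BraKO cells) and 1008922 peaks (replicate 1 of SOX2 in WT CEpiLCs), so ranks within a list were compared, and a peak counted as called when it was among the 20000 best. Fold enrichment is the number of fragments at the summit, the highest point of a peak, over the local background, with 1 added to both. In 29 lists it could be solved together with the p value for the whole number of fragments, and the weakest listed peaks held 4 to 8 fragments against a median background of 0.692 to 1.90. The list of replicate 3 of SOX2 in T/BraKO cells could not be solved. Fold enrichment at rank 20000 ran from 4.40 to 9.75 over the lists. A called peak was therefore not equally enriched in each, and an uncalled peak of one list can exceed a called peak of another. Of the regions called in at least 20 of the other lists, the β-catenin libraries called 89.4% to 99.0%, the SOX2 libraries 64.8% to 93.9% and the LEF1 libraries 35.8% to 55.1%. Of the 30 lists 21 are of SOX2 or β-catenin, so the LEF1 share is no measure of how well LEF1 libraries match each other. Among SOX2 libraries replicates 1 and 2 of WT CEpiLCs had the lowest shares, 64.8% and 68.0%.

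The sequences on which the results turn are given first, so that binding values at these summits can be read against their DNA. They are GRCm38.p6 windows of 201 bases on the strand of the gene, with the summit at base 101. They cover the element of each gene that was called in most lists and the elements that were called in every library of one group and no library of the group it was compared with. For Nkx1-2 both β-catenin maxima of the element are shown, centred on the median summits of T/BraKO (-1412 bp) and CdxKO (-1675 bp). The best SOX2 summits of WT CEpiLC replicates 2 and 3, at -1226 and -1232 bp, lie outside both windows. A region in the 3′ untranslated part of Sp8 is described below by position only. The windows are chr6:52311339-52311539 and chr6:52314781-52314981 for Evx1, chr7:132600949-132601149 and chr7:132601212-132601412 for Nkx1-2, chr12:118856315-118856515 for Sp8, and chr10:128891854-128892054 and chr10:128889234-128889434 for Gdf11. Capitals mark the TCF/LEF words CTTTGAA and CTTTGAT, or their shorter cores TTTGAA and TTTGAT, on either strand.
Evx1 upstream element: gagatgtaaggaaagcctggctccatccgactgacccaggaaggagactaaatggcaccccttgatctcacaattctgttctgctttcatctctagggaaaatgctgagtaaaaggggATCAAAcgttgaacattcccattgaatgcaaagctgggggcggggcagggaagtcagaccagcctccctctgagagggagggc
Evx1 intronic element: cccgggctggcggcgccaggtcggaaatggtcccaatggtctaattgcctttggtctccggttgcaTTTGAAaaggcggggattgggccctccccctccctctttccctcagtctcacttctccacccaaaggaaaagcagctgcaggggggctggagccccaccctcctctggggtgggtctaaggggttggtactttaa
Nkx1-2 upstream element, proximal maximum: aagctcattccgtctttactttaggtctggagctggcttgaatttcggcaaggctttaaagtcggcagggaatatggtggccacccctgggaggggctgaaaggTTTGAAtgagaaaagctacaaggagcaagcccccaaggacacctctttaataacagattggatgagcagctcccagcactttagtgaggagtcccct
Nkx1-2 upstream element, distal maximum: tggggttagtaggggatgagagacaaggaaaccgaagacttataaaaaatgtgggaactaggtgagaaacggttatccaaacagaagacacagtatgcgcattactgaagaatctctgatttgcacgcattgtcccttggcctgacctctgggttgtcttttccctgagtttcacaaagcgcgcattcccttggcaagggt
Sp8 downstream element: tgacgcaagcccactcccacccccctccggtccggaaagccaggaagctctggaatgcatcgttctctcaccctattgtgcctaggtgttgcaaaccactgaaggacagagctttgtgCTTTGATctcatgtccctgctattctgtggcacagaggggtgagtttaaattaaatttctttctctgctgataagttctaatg
Gdf11 promoter element: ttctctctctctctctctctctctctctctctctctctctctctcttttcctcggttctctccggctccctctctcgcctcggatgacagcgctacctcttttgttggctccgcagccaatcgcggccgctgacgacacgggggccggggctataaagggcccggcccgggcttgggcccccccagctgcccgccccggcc
Gdf11 intronic element: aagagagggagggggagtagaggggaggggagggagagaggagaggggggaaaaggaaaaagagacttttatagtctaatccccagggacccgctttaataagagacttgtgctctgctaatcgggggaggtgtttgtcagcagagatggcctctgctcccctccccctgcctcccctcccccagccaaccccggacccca

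SOX2 favoured a different gene of the set from β-catenin and LEF1, which shared theirs. Evx1 carried the strongest β-catenin and LEF1 peaks, with a median best rank of 169 over the 9 β-catenin lists and 117 over the 9 LEF1 lists. Only 0.460% and 0.246% of all protein-coding genes had a better median rank for these 2 proteins. For SOX2 the best-ranked gene was Sp8, with a median best rank of 1175.5 over 12 lists, and 3.01% of genes ranked better. Nkx1-2 lay between, with medians of 3584 for SOX2 and 1822 for β-catenin, and 8.24% and 4.45% of genes ranked better. Gdf11 was bound least by the WNT effectors: its median best rank was 10264 for β-catenin and 20592 for LEF1, and 19.3% and 32.5% of genes ranked better. The 4 extended loci spanned 24760 to 29424 bp, while loci of other genes vary in length and longer ones can hold more peaks.

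**Figure D1:**
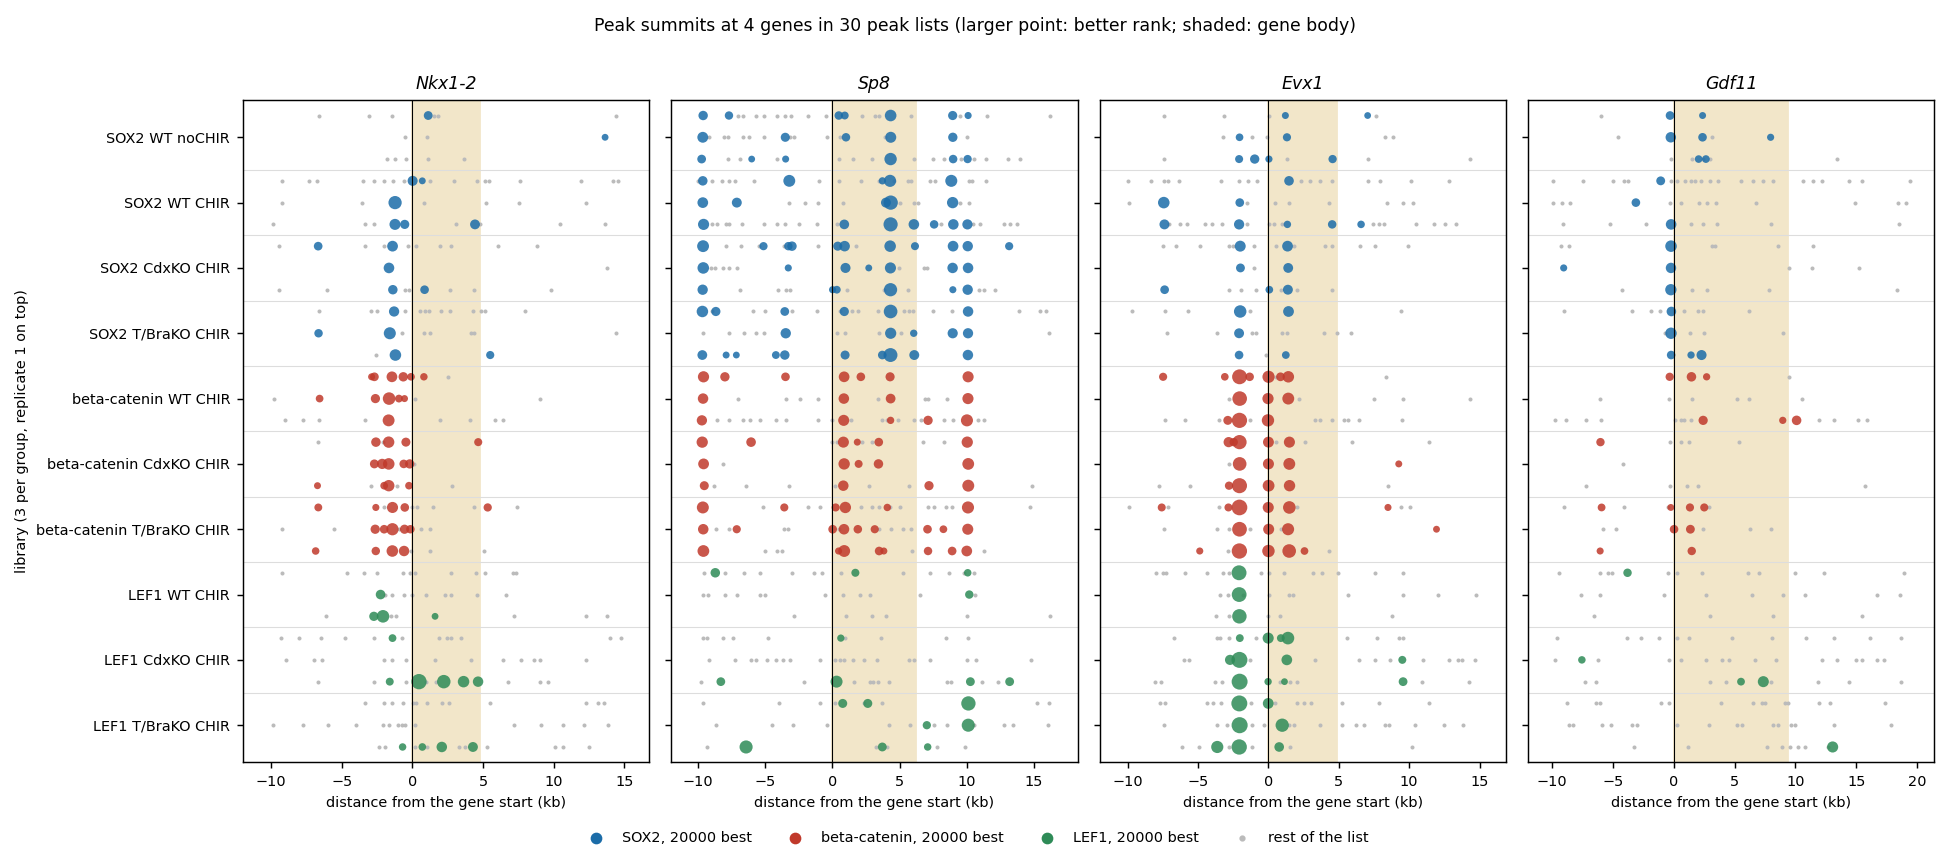
Summits of all peaks at the 4 genes, plotted by distance from the gene start (kb) on the x axis, with 1 row per library in 10 groups of 3. Coloured points are among the 20000 best of a list (larger for a better rank), grey points lie lower and the shaded span is the gene body. Columns of aligned points recur at fixed distances, such as -2.05 kb at Evx1 in 27 lists and 10.12 kb at Sp8 in 23 lists, whereas the grey points are scattered.

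Evx1 (chr6:52313498-52318378, plus strand) had 2 recurrent regions, at -2.05 kb and over the start of the gene. The upstream region (chr6:52310287-52312646) was called in 27 of 30 lists, a recurrence reached by 0.0942% of the 336403 merged regions, and its summit lies in an intron of the antisense gene Evx1os. In all 27 lists a called summit fell between -2089 and -1989 bp, and the 9 β-catenin summits fell between -2065 and -2044 bp. The core ATCAAA printed in the upstream element lies just downstream of this point.

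At this element β-catenin reached its highest enrichment among the 4 loci. Fold enrichment was 59.8, 43.6 and 91.8 in the WT libraries, 54.1, 36.1 and 84.4 in CdxKO, and 96.1, 44.8 and 57.3 in T/BraKO. These summits held 87 to 228 fragments, and the 3 genotypes overlapped. LEF1 enrichment was 24.0, 19.1 and 16.8 in WT, 9.13, 35.4 and 30.1 in CdxKO, and 28.8, 28.3 and 17.2 in T/BraKO. All LEF1 lists except replicate 1 of CdxKO ranked this peak between 61 and 239, and that library ranked it 12958. SOX2 was weaker here, with fold enrichment of 4.37 to 18.2 and ranks of 1006 to 69176 for the best peak of each of its 12 lists in the region, not all of them at this summit.

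The second region (chr6:52313107-52315284) was called in 25 lists and held 2 separate maxima, at the gene start and about 1.4 kb into the gene, in an intron. In the 9 β-catenin lists the better of them had fold enrichment of 13.8 to 40.2. The start-site maximum was called in all 9 β-catenin lists and in 2 of 12 SOX2 lists, whereas the intronic maximum was called in 8 β-catenin and 9 SOX2 lists. LEF1 was the exception: it was called in 0 of 3 WT libraries, 3 of 3 CdxKO libraries and 3 of 3 T/BraKO libraries. Its fold enrichment was 6.68, 4.01 and 6.06 in WT, where the ranks were 56185, 499698 and 20331, the last just outside the 20000 best. In CdxKO it was 15.2, 9.54 and 6.71, and in T/BraKO it was 11.0, 14.3 and 7.10. All 3 WT libraries thus listed a weaker peak here, and WT did not overlap either mutant, although the lowest CdxKO value of 6.71 and the highest WT value of 6.68 were nearly equal. The LEF1 summits were spread over the region: they lay at 1385, 1305 and -26 bp in CdxKO, at -15, 978 and 763 bp in T/BraKO, and at -499, 33 and 837 bp in WT. With the 2 maxima separated, the intronic one was called for LEF1 in 3 of 3 CdxKO and 2 of 3 T/BraKO libraries.

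Counted over the whole Evx1 locus, LEF1 had 1, 1 and 1 called peaks in WT, 4, 4 and 4 in CdxKO and 2, 2 and 3 in T/BraKO. The differences were -3.00 peaks for WT minus CdxKO and -1.33 for WT minus T/BraKO (two-sided exact permutation p = 0.1 for both, the smallest that 3 against 3 libraries allow; adjusted p = 1 over 21938 genes). More peaks in every CdxKO library than in any WT library was seen for 1.22% of genes, and more in every T/BraKO library for 1.24%. The same 3 WT libraries served both comparisons. LEF1 libraries also differed in their shares of the regions called in most other lists, described above. These shares were 49.5%, 35.8% and 42.2% in WT and 50.9%, 55.1% and 53.9% in CdxKO, without overlap. In T/BraKO they were 36.9%, 45.5% and 46.1%, which overlapped WT. Whether these shares bear on the peak numbers at Evx1 was not tested. The best LEF1 peak of Evx1 ranked 166, 179 and 239 in WT and 68, 61 and 117 in T/BraKO, a difference in mean log10 rank of 0.39 (exact permutation p = 0.1, adjusted p = 0.988). Of all genes, 4.39% ranked better in every T/BraKO library and 5.13% in every WT library. LEF1 best ranks of Evx1 in CdxKO, 897, 66 and 69, lay on both sides of the WT ranks. For SOX2 the best rank was 5637, 1834 and 3977 in WT CEpiLCs and 18276, 11265 and 6523 in EpiLCs, and every library with CHIR ranked better, in replicate 2 through a peak at -7437 bp. The mean log10 rank differed by -0.50 (exact permutation p = 0.1, adjusted p = 0.473), with 3.54 ± 0.25 with CHIR and 4.04 ± 0.22 without it (SD, n = 3). For SOX2, 8.05% of genes ranked better in every CEpiLC library and 13.1% in every EpiLC library.

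**Figure D2:**
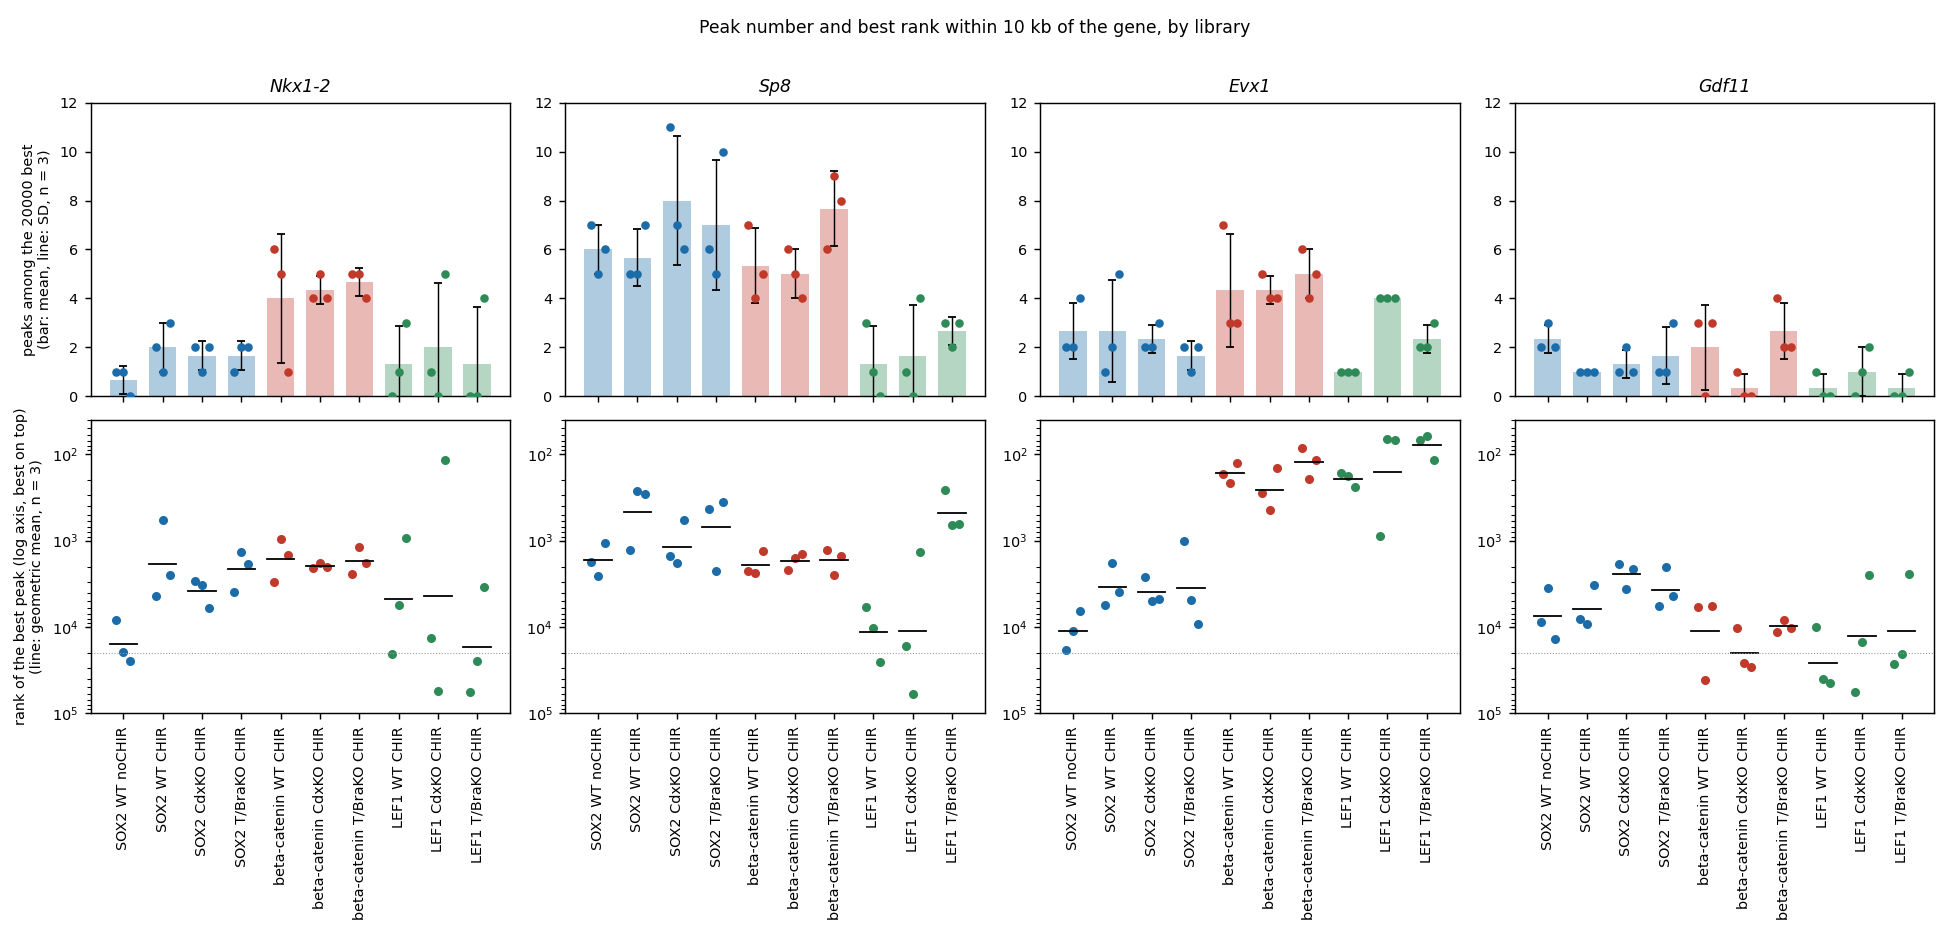
Number of peaks among the 20000 best (top, bars are means with SD, n = 3) and rank of the best peak (bottom, logarithmic axis with the best rank on top, lines are geometric means) at each gene, with a point for each library and the groups on the x axis. β-catenin and LEF1 ranks of Evx1 lie at or better than 897 in all 18 lists, while at Gdf11 most lie beyond 5000.

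Nkx1-2 (chr7:132594878-132599637, minus strand) was bound mainly upstream of its start, in a region (chr7:132598347-132602434, from 1.29 kb inside the gene to -2.80 kb) called in 24 lists. A long annotated Fgfr2 transcript model spans this locus, and the antisense gene Gm16764 overlaps Nkx1-2, so a peak here cannot be assigned to one gene by position alone. The region is 4088 bp wide because neighbouring peaks chain together. Grouping summits no more than 250 bp apart resolved it into several clusters, of which the one centred on -1416 bp (-1684 to -953 bp) was called in 19 lists: all 9 β-catenin lists, 8 of the 9 SOX2 lists with CHIR (2 of 3 in WT), 0 of the 3 SOX2 lists without it and 2 LEF1 lists. Replicate 3 of EpiLCs listed a SOX2 peak within the cluster, at -1264 bp, but at rank 24845, outside the 20000 best. The share of all clusters with such a pattern was not computed.

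The best β-catenin peak of the locus lay in this cluster in all 9 lists. It ranked 3024, 960 and 1475 in WT, 2052, 1819 and 2024 in CdxKO and 2427, 1181 and 1822 in T/BraKO, with 37 to 60 fragments at the summit. The genotypes overlapped. Its summit did not sit at the same base in each. It was at -1680, -1675 and -1673 bp in the CdxKO libraries, at -1408, -1412 and -1420 bp in the T/BraKO libraries, and at -1449, -1650 and -1684 bp in WT. The CdxKO and T/BraKO positions are the distal and proximal maxima printed above, and the WT summits were nearer the proximal one in replicate 1 and the distal one in replicates 2 and 3. The mutants were not compared with each other, and no test of the position was made.

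SOX2 ranks at Nkx1-2 did not overlap between cells with and without CHIR, but the difference did not pass the adjusted test. The best peak ranked 8321, 19354 and 24845 in EpiLCs, against 4433, 586 and 2534 in WT CEpiLCs. Mean log10 rank was 4.20 ± 0.25 without CHIR and 3.27 ± 0.45 with it (SD, n = 3), which corresponds to an 8.47-fold better geometric mean rank with CHIR (exact permutation p = 0.1, adjusted p = 0.473). The difference in mean log10 rank was -0.93, and it was -0.68 without replicate 2 and -1.115 without replicate 1 of the CEpiLC libraries, each over 1.5 times away as a fold. Of all protein-coding genes, 8.05% had a better best rank in every CEpiLC library and 13.1% in every EpiLC library. Fold enrichment of the best SOX2 peak was 10.1, 6.67 and 6.27 without CHIR and 12.5, 15.3 and 12.8 with it. The best summits were at 1118, 13634 and -1264 bp in EpiLCs and at 16, -1226 and -1232 bp in WT CEpiLCs, so replicate 3 of EpiLCs had its best peak at the same place as replicates 2 and 3 of CEpiLCs. In the mutants SOX2 best ranks were 2969, 3231 and 6067 (CdxKO) and 3937, 1342 and 1848 (T/BraKO), and both groups overlapped WT CEpiLCs.

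LEF1 at Nkx1-2 was variable. Best ranks were 20669, 5583 and 924 in WT, 13257, 55049 and 117 in CdxKO, and 56147, 25045 and 3454 in T/BraKO, so libraries of the same group differed widely. The rank of 117 came from replicate 3 of CdxKO, with a summit at 465 bp inside the gene, and no other library had its best peak there. A further region at -6.67 kb was called in 6 lists, 2 of SOX2 and 4 of β-catenin, and never with more than 19 fragments.

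**Figure D3:**
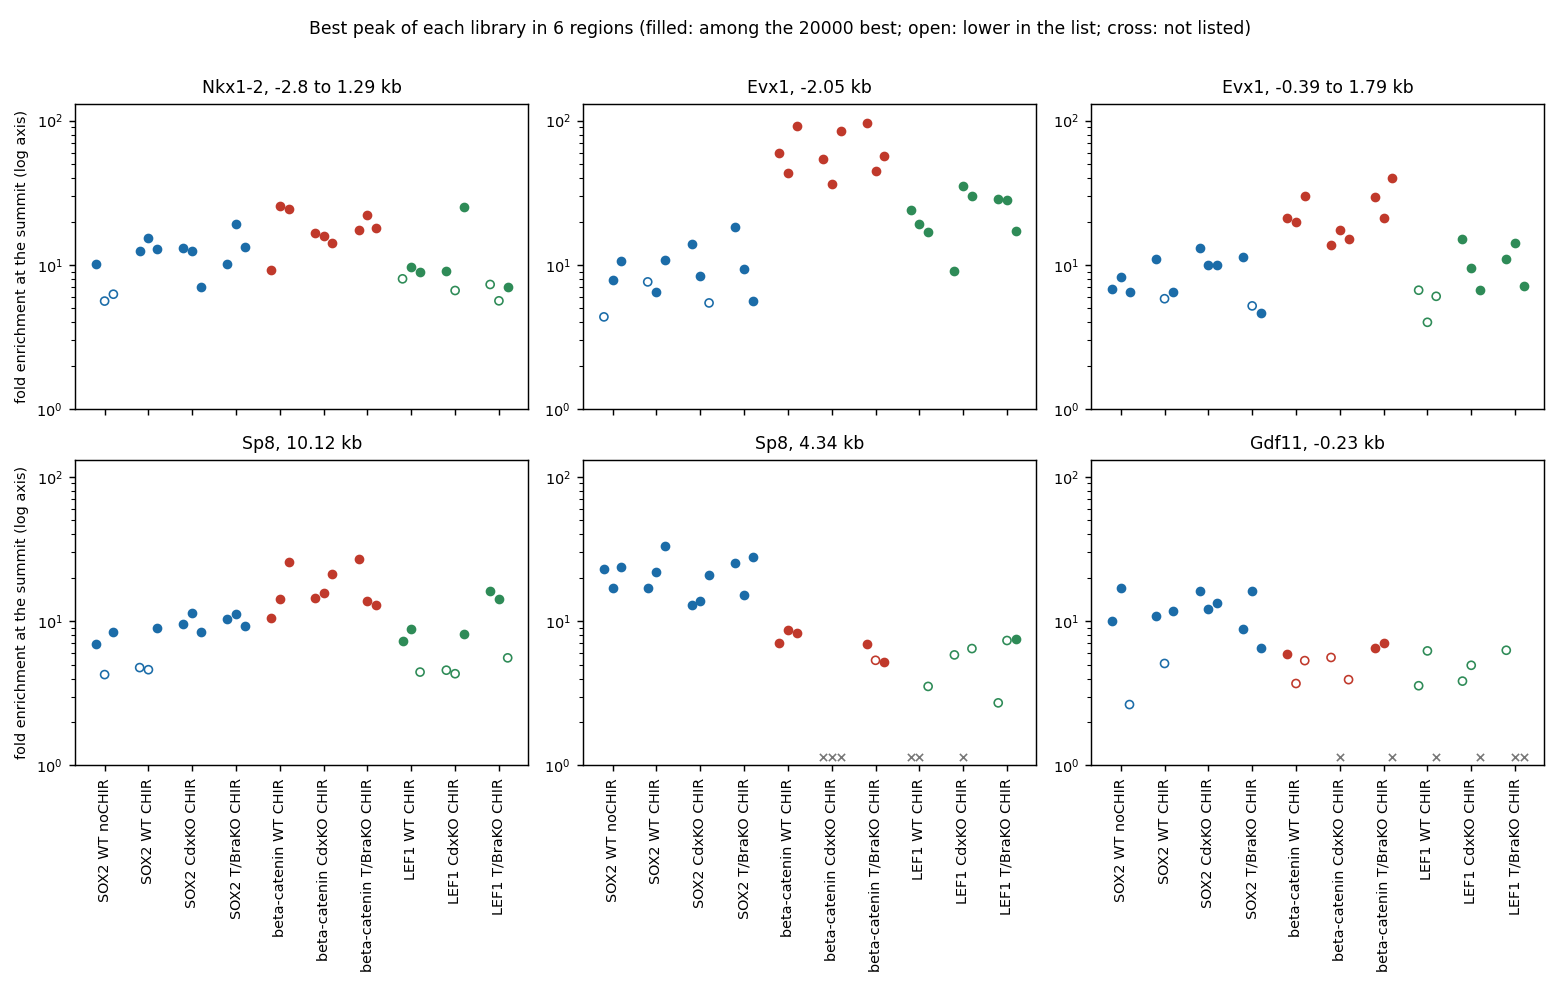
Fold enrichment (logarithmic axis) of the best peak of each library in 6 regions, with the groups on the x axis and 1 point per library. Filled points are among the 20000 best, open points lie lower in the list and crosses mark libraries that list no peak. β-catenin is at 36.1 or higher at the upstream Evx1 region in every library, SOX2 is at 12.9 or higher at Sp8, 4.34 kb, in every library, and the 3 β-catenin CdxKO libraries are crosses there.

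Sp8 (chr12:118846329-118852576, plus strand) had the most recurrent regions, 7 of its 23 regions being called in at least 6 lists. Over the 4 loci this held for 13 of 60 regions, and over all merged regions for 5.24%. No other annotated gene lies within 10 kb. Called peaks numbered 5 to 11 in the SOX2 libraries, 4 to 9 in the β-catenin libraries and 0 to 4 in the LEF1 libraries. No genotype or CHIR comparison of peak number at Sp8 separated its groups.

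The Sp8 regions differed in how many SOX2 and β-catenin lists called them. The region at 4.34 kb (chr12:118849969-118851018), in the 3′ untranslated region, was called in all 12 SOX2 lists, with summits between 4288 and 4339 bp. Fold enrichment was 22.9, 16.9 and 23.8 in EpiLCs, 16.9, 21.8 and 33.3 in WT CEpiLCs, 12.9, 13.8 and 20.8 in CdxKO and 25.1, 15.1 and 27.7 in T/BraKO, and the 4 groups overlapped. A region at 8.85 kb (chr12:118854873-118855514) was likewise called in 10 of 12 SOX2 lists and in 1 β-catenin list. The region at 10.12 kb (chr12:118855985-118856874) was called in all 9 β-catenin lists and 9 SOX2 lists, and the region just inside the gene (chr12:118846148-118847884) in all 9 β-catenin lists and 8 SOX2 lists. β-catenin fold enrichment at 10.12 kb was 10.6, 14.3 and 25.5 in WT, 14.5, 15.8 and 21.1 in CdxKO, and 27.0, 13.8 and 13.0 in T/BraKO, again with overlap. The word CTTTGAT printed in the Sp8 downstream element lies within this region. The region at -9.64 kb (chr12:118836273-118837237) was called in 11 SOX2, 9 β-catenin and 0 LEF1 lists.

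The region at 4.34 kb was the one member region that separated the β-catenin groups. It was called for β-catenin in 3 of 3 WT and 0 of 3 CdxKO libraries, and 0.517% of the regions called in either group showed this pattern. The WT libraries had fold enrichment of 7.08, 8.69 and 8.27, with 17, 19 and 18 fragments and summits at 4290, 4330 and 4327 bp, close to those of SOX2. In CdxKO no peak was listed in the region at any rank, and the weakest peaks of those lists held 6 or 7 fragments. T/BraKO libraries had weaker listed peaks, with fold enrichment of 6.89, 5.35 and 5.22, and with summits at 4082, 4361 and 3825 bp. Replicates 1 and 2 of CdxKO called β-catenin peaks just outside the region, at 3447 and 3425 bp, with fold enrichment of 6.98 and 7.94. When all summits no more than 250 bp apart were joined, these fell into the same cluster and the 3-against-0 pattern was lost.

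**Figure D4:**
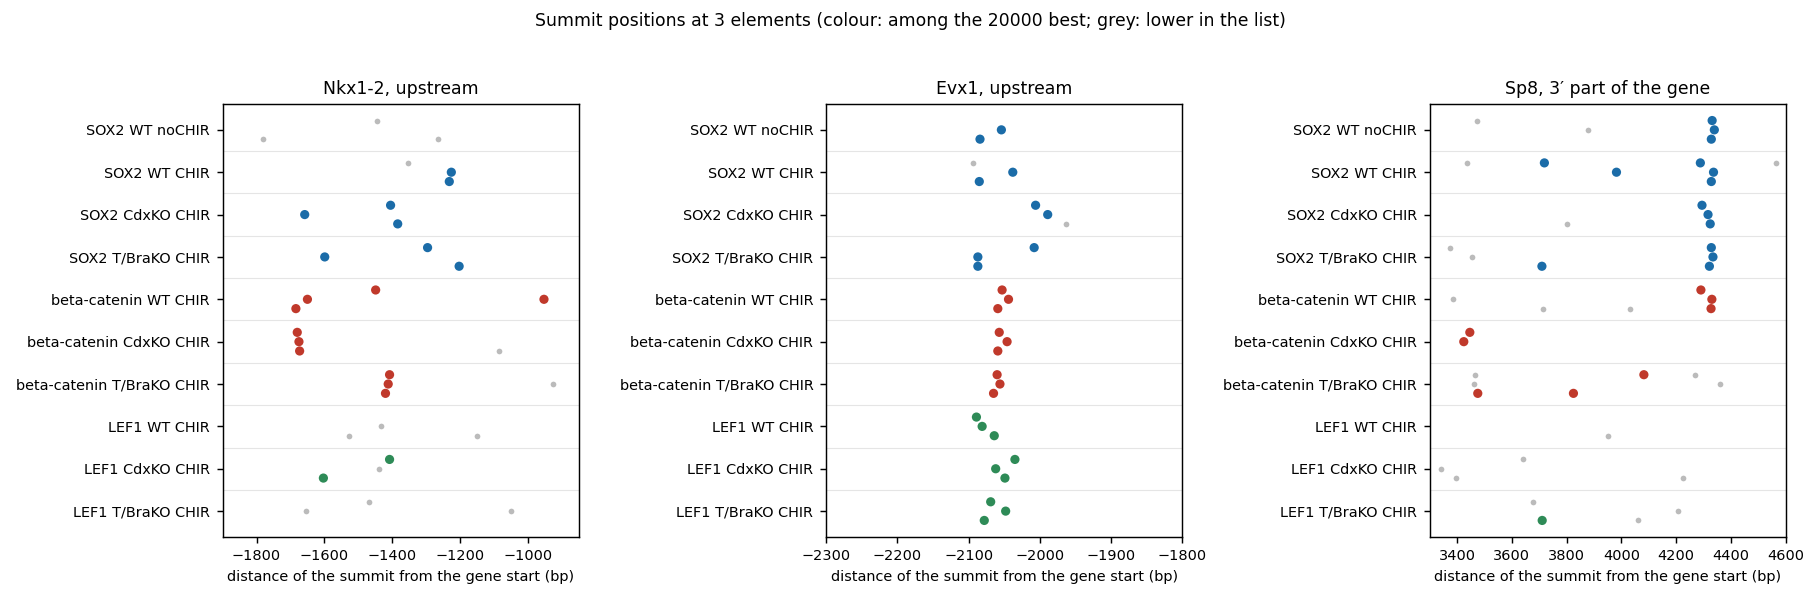
Summit positions (bp from the gene start, x axis) at 3 elements, with libraries in rows by group, coloured where the peak is among the 20000 best and grey where it lies lower. At Nkx1-2 the CdxKO β-catenin summits lie at -1680 to -1673 bp and the T/BraKO summits at -1420 to -1408 bp. At Evx1 the β-catenin summits lie within -2065 to -2044 bp in every genotype, and at Sp8 no CdxKO β-catenin summit lies near 4.3 kb.

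For LEF1 at Sp8 the ranks of WT and T/BraKO did not overlap, but the difference did not pass the adjusted test. The best peak ranked 5900, 10153 and 25396 in WT and 262, 657 and 650 in T/BraKO. Mean log10 rank was 4.06 ± 0.32 and 2.68 ± 0.23 (SD, n = 3), a difference of 1.38, or 23.9-fold in geometric mean rank (exact permutation p = 0.1, adjusted p = 0.988). A better best rank in every T/BraKO library was seen for 4.39% of genes and in every WT library for 5.13%. The T/BraKO peaks were not all at 1 element: replicates 1 and 2 had theirs at 10119 and 10107 bp, in the downstream element, and replicate 3 at -6426 bp. In CdxKO LEF1 ranks were 16460, 59785 and 1372, on both sides of those of WT. For SOX2 the best Sp8 peak ranked 1278, 270 and 293 in WT CEpiLCs and 1753, 2558 and 1073 in EpiLCs, which overlapped.

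Gdf11 (chr10:128882295-128891718, minus strand) lay within 10 kb of Sarnp and Cd63, and 2 of its 15 regions were called in at least 6 lists. The promoter region (chr10:128891626-128892897, best summit at -0.23 kb) was called in 13 lists, 10 of them SOX2 lists and 3 of them β-catenin lists, and its printed sequence opens with a pyrimidine repeat. SOX2 fold enrichment there was 10.1, 16.9 and 2.64 in EpiLCs, 10.9, 5.08 and 11.8 in WT CEpiLCs, 16.1, 12.1 and 13.4 in CdxKO and 8.86, 16.1 and 6.47 in T/BraKO. All 3 CdxKO values exceeded those of WT CEpiLCs, where 1 summit lay at -1083 bp, but EpiLC and T/BraKO values lay on both sides. The lowest CdxKO value, 12.1, was close to the highest of WT CEpiLCs, 11.8, and the share of all regions with such a separation was not computed. By the best SOX2 rank of the locus the groups overlapped, with 8089, 9122 and 3252 in WT CEpiLCs and 1848, 3615 and 2128 in CdxKO.

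The other recurrent region of Gdf11 (chr10:128888850-128889545, 2.27 kb into the gene, in an intron) was called for SOX2 in 3 of 3 EpiLC libraries and 0 of 3 WT CEpiLC libraries, a pattern shown by 3.89% of the regions called in either group. Its fold enrichment was 6.02, 10.0 and 7.48 in EpiLCs and 9.27, 5.51 and 3.10 in WT CEpiLCs, so on this scale the groups overlapped, and 2 of the CEpiLC ranks, 24291 and 25435, lay just outside the 20000 best. With it, the number of SOX2 peaks at Gdf11 was 2, 3 and 2 in EpiLCs and 1, 1 and 1 in WT CEpiLCs (difference -1.33, exact permutation p = 0.1, adjusted p = 1), against 2.89% of genes with more peaks in every EpiLC library. With the full lists the direction turned: the WT CEpiLC lists, of 205833 to 1008922 peaks, held 24, 13 and 9 peaks at the locus, and the EpiLC lists, of 81239 to 201773 peaks, held 3, 5 and 7. β-catenin at Gdf11 had best ranks of 5881, 41253 and 5769 in WT, 10264, 25816 and 29366 in CdxKO and 11342, 8262 and 10141 in T/BraKO. The 3 best T/BraKO summits lay together, at 1322, 1359 and 1469 bp, and that of WT replicate 1 lay among them, at 1446 bp. The best summits of WT replicates 2 and 3 were at 10566 and 10092 bp, and those of CdxKO at -6036, -4189 and 1074 bp. The region around 1446 bp held a listed β-catenin peak in 3 WT, 1 CdxKO and 3 T/BraKO libraries, and a called one in 1, 0 and 3. LEF1 had 2 called peaks at most, and no LEF1 list called either recurrent region.

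Over the 4 genes and 7 comparisons, 3 of 28 differences in peak number and 4 of 28 in best rank reached an exact permutation p of 0.1, the smallest possible, and none passed an adjusted p of 0.05. For best rank the members' share, 14.3%, was near that of all gene and comparison pairs, of which 12.3% did not overlap in either direction. For peak number the shares were 10.7% and 2.80%, but a locus with no called peak in either group cannot separate by number. The adjusted p was 1 for all peak numbers and at least 0.473 for best ranks. In the other 4 comparisons of peak number none of the 4 genes separated the groups, against 3.04% and 2.53% of genes for SOX2 in WT against CdxKO and T/BraKO, and 2.14% and 2.59% for β-catenin. At the level of regions, the region over the start of Evx1 was called for LEF1 in every CdxKO library but no WT library, as were 0.0989% of regions called in either group, and in every T/BraKO library but no WT library, as were 0.0296%. Of all merged regions 83.7% were called in 1 list only, and such a region cannot show a 3-against-0 pattern. These shares, and the 0.517% and 3.89% given above, therefore do not measure how rare the pattern is among recurrent regions. No member region was called in every WT CEpiLC library and absent from every EpiLC library for SOX2, and none separated WT from either mutant for SOX2 or WT from T/BraKO for β-catenin.

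Motifs were searched within 100 bp of the best summit of each recurrent region, on both strands. A CDX word was one of the 4 words CCATAAA and CAATAAA with the variants TCATAAA and TAATAAA, and it was found in 3 of 13 regions and in 14.5% of all merged regions (11.1% of those called in at least 6 lists), at 411 bp in Nkx1-2 and at 361 and 4294 bp in Sp8. The T-box word AGGTGTGA was found in 0 of 13 and in 1.06% of all regions (1.23%). A SOX word (CCATTGT or CCTTTGT) was found in 1 of 13, at -9653 bp of Sp8, and in 10.8% of all regions, or 23.6% of the 17620 regions called in at least 6 lists. CTTTGAA or CTTTGAT was found in 3 of 13, all at Sp8, against 13.2% and 29.1%. The core TTTGAA or TTTGAT, added after the sequences were read and contained in the longer word, was found in 5 of 13, or 38.5%, in 31.7% of all regions and in 43.9% of those called in at least 6 lists. The strongest β-catenin and LEF1 element, upstream of Evx1, held only the core. The wide Nkx1-2 region was searched only around 465 bp, the summit of replicate 3 of LEF1 in CdxKO. The Sp8 region just inside the gene was searched only around 306 bp, a summit of the same library. Its best β-catenin summits lay at 809 to 960 bp. In windows around the summit clusters, CTTTGAA or CTTTGAT was also found at -638 and -2658 bp of Nkx1-2 and at 856 bp of Sp8. A SOX word at 8949 bp and a CDX word at -3431 bp of Sp8 were found there too. The CDX words at 411 bp in Nkx1-2 and 361 bp in Sp8 lay outside those windows. So did the longer TCF/LEF word at 245 bp of Sp8 and the core at 2238 bp of Gdf11.

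A list of 20 other genes of the caudal epiblast programme, which includes T, Sox2, the Cdx genes, Wnt3a, Fgf8 and Hoxb8, was read in the same way. For SOX2, 8 of 20 ranked better in every WT CEpiLC library than in any EpiLC library (Cdx1, Cdx2, Sp5, Fgf8, Wnt3a, Lin28a, Hoxb8 and Hoxb9), against 8.05% of all genes, and 1 of 20 (Msgn1) ranked better in every EpiLC library, against 13.1%. The median difference in log10 rank was -0.42 over these 20, -0.53 over the 4 members and -0.0027 over all genes, none of them tested as a set. Between WT and CdxKO, 2 of 20 ranked better in every WT library for SOX2 (4.88% of genes), 3 of 20 for β-catenin (5.5%) and 3 of 20 for LEF1 (5.11%), and Hoxb8 was in all 3 counts. Hoxb8 and Hoxb9 are neighbours with the same median best rank for SOX2 and β-catenin. None ranked better in every CdxKO library for any protein, against 10.6%, 3.5% and 4.7% of genes, and none of the 4 members separated in either direction. Between WT and T/BraKO, 2 of 20 ranked better in every WT library for SOX2 (2.86%), 4 of 20 for β-catenin (4.84%) and 3 of 20 for LEF1 (5.13%). In every T/BraKO library 1, 3 and 0 of 20 ranked better, against 7.94%, 5.34% and 4.39% of genes. The 3 listed genes that separated for LEF1, Cdx1, Wnt3a and Msgn1, ranked better in WT, whereas the members Sp8 and Evx1 ranked better in T/BraKO. No gene of the list passed an adjusted p of 0.05 in any comparison.

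Median best ranks of relatives of the members are given for comparison, without a test. Evx2 had a median best rank of 17960 for β-catenin and 45666 for LEF1, against 169 and 117 at Evx1. Nkx1-1 had 26032 for β-catenin against 1822 at Nkx1-2. Mstn, which encodes the ligand closest to GDF11, had 41583 for β-catenin against 10264 at Gdf11. Sp9 had 3318 for β-catenin against 1597 at Sp8, and Sp5, a WNT target, had 6. Among 8 receptors, modulators and effectors of GDF11 signalling, median β-catenin ranks ran from 525 at Acvr1b, a type I receptor, to 36380 at Acvr2a, a type II receptor. For β-catenin 2 of these 8, Tgfbr1 and Acvr1b, ranked better in every WT than CdxKO library, against 5.5% of all genes, and 1 of 8, Fst, an extracellular inhibitor, better in every WT than T/BraKO library, against 4.84%. None passed an adjusted p of 0.05.

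The genes whose log10 best ranks followed a member most closely over the 30 lists were Vgll4 (Pearson r = 0.93), Psmd12 (0.92) and Wnt6 (0.92) for Evx1, and Ftl1-ps1 (0.80), Bahd1 (0.76) and Dusp1 (0.75) for Sp8. For Gdf11 they were Thtpa (0.81), Fam222b (0.76) and Tex44 (0.75), and for Nkx1-2 Fbxo24 (0.75), Hist1h2an (0.73) and Hist1h2bp (0.73) (the last 2 with identical values). The 30 points share library, protein and list length. At Evx1 the best ranks ran from 1006 to 18276 in the 12 SOX2 lists and from 61 to 897 in the 18 others, and no correlation within a protein was computed.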

How the data were processed

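Peaks were called by the authors from single-end ChIP–seq reads with the nf-core/chipseq pipeline (Trim Galore, BWA, mm10, MACS). Versions and the control library of each call were not all given in the sources used here. The 12 input samples were not analysed here. Each deposited list gave, per peak, the fold enrichment at the summit as a ratio over local background, and the −log10 p and −log10 q values that the authors' peak caller wrote. The deposited lists hold no counts, so sequencing depth is unknown and p-values describe only the spread between libraries.

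Each list was ranked by −log10 q. The 20000 best peaks were called, and peaks overlapping by at least 1 bp were merged across lists into regions. Number of called peaks and log10 of the best rank in the full list (a list without a peak would get its length plus 1) were compared for all 21938 protein-coding genes by a two-sided exact permutation test over 20 assignments (smallest p 0.1), with Benjamini-Hochberg adjustment over genes, in 7 comparisons. Fragments at a summit were solved from fold and p. Python 3.11.15, numpy 2.4.6, pandas 2.3.3 and scipy 1.17.1 were used, and scripts were tested on simulated data.

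The members and gene lists were chosen with earlier results of these data known. Named regions were those called in at least 6 lists, or called in all 3 libraries of a group while absent from the 3 it was set against. The summit clusters, the 6-letter TCF/LEF core and the printed windows, which are centred on cluster summits in place of the wider merged regions, were chosen after the data were seen. Libraries with the same replicate number did not vary together (correlations -0.132 to 0.117 over 21 pairs), so no pairing was used.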

Additional observations from a re-analysis of the deposited data

How the results depend on the processing

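The 56 differences of the 4 genes (28 in peak number, 28 in best rank) were recomputed with full lists, 5000 best peaks, loci extended by 50 kb, rank over list length, each mutant against the other 6 libraries, the replicate block and each library left out. Of 580 recomputed values 72 changed sign, and none passed 0.05 (smallest adjusted exact permutation p 0.262). The 7 differences given above were chosen because their groups did not overlap, after these values had been seen, so their own 2 sign changes among 70 values are no sign of stability. These were the SOX2 peak number at Gdf11, 10.33 with full lists, and the LEF1 peak number at Evx1 for T/BraKO, 0.1667 with the mutant set against the other 6 libraries. For the other sign changes the cause was not tested. Leaving out 1 library raised the exact permutation p from 0.1 to 0.2 in 3 cases for SOX2 at Nkx1-2, 4 for SOX2 at Evx1 and 3 for LEF1 ranks at Evx1.

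With the replicate block, which allows no exact p below 0.25, the difference in log10 rank at Nkx1-2 was again -0.9279 (adjusted p = 0.6998), and 0 of the 56 differences changed sign.

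Regions called in every library of one group and none of the other numbered 1 for SOX2 with against without CHIR, β-catenin in CdxKO, LEF1 in CdxKO and LEF1 in T/BraKO, and 0 in the other 3 comparisons. With full lists the count was 0 for SOX2 and CHIR and 1 for SOX2 in T/BraKO. With 5000 best peaks it was 2 for SOX2 and CHIR, 1 for SOX2 in CdxKO, and 0 for β-catenin in CdxKO and for LEF1 in either mutant. The Gdf11 intronic region was not among these 2, since its EpiLC ranks were 9251 to 18473. Both were called in WT CEpiLCs and not in EpiLCs, the opposite direction. They were the Nkx1-2 region around the gene start (ranks 586 to 4433 against 8321 to 35379) and the Sp8 region at 8.85 kb (1354 to 3414 against 6530 to 9505). For these and the other alternative settings of this paragraph the share of all regions with the pattern is not given. The counts therefore cannot be set against the rest of the genome. With summit clusters, added after the data were seen, the count was 0 for β-catenin in CdxKO and 0 for LEF1 in T/BraKO. Leaving out a library gave 1 to 2 for SOX2 and CHIR (2 without replicate 1 of either group), 0 to 2 for SOX2 in CdxKO (2 without WT replicate 3), 1 to 2 for β-catenin in CdxKO (2 without WT replicate 2 or CdxKO replicate 3), 1 to 2 for LEF1 in CdxKO (2 without CdxKO replicate 1 or 2), 0 to 2 for SOX2 in T/BraKO (2 without WT replicate 1, 1 without WT replicate 3 or T/BraKO replicate 2), 0 to 1 for β-catenin in T/BraKO (1 without WT replicate 1 or T/BraKO replicate 2) and 1 to 2 for LEF1 in T/BraKO (2 without T/BraKO replicate 1). Left out, a library makes the pattern easier to meet, since only 2 libraries of its group remain. The lists give no depth, so an unlisted peak may lie below what a library could detect.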
